A study of Mus musculus with 24 samples.

Results

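The 10 genes described here belong to the circadian clock: the activators Arntl (BMAL1) and Npas2, the repressors Per1, Per2, Per3 and Cry1, the nuclear receptors Nr1d1 (REV-ERB alpha) and Nr1d2 (REV-ERB beta), and the output transcription factors Dbp and Tef. They were chosen by name as a sign of the time at which tissue was taken, and are 10 of the 24421 gene symbols in the count files. All 10 passed the filter on low counts in each comparison. The 24 libraries hold total RNA of adipose tissue, taken from C57BL/6 mice 2 months old. These were wild type (WT) or carried STAT5B with 1 tyrosine changed to phenylalanine (Y665F) or to histidine (Y665H), and each genotype had 4 male and 4 female libraries. STAT5B carries signals from growth hormone and cytokine receptors to the nucleus. The labels name no fat depot, no zygosity and no time of collection, and do not say that each library came from its own animal, so p-values measure the spread between libraries, which may be partly technical.

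In the clock of mammalian cells, BMAL1 pairs with CLOCK or its relative NPAS2 and activates genes that carry E-box sequences, among them the Per, Cry, Nr1d and Dbp genes. PER and CRY proteins then repress their own activators, and the REV-ERB receptors repress Arntl at sites that the activating ROR receptors also bind. Dbp and Tef act on D-box sequences. In peripheral tissues of mice, including fat, Arntl and Npas2 therefore run roughly opposite in phase to Dbp, Nr1d1 and the Per genes over the day, so their ratio in a single sample depends on the hour at which it was taken.

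Short sequence elements known from the clock were looked for near the starts of the members; a match is a description of letters, and no binding was measured. RefSeq windows on GRCm38.p6, from 250 bases before to 50 bases after an annotated start, were found for 9 of the 10 members, 12 windows in all; Per2 had none. Both strands were searched for the E-box CACGTG, the D-box TTATGNAA and the core TNGGTCA of ROR and REV-ERB elements, and the full element was taken as this core directly after AAN, so that every full element also counts as a core. Of 32817 such windows of all genes, 7.15% held the E-box, 3.39% the D-box, 0.603% the full element and 11% the core. Windows with a match that bear on the pairs described below are printed 5′ to 3′ on the gene's strand, with matches in capitals.
Arntl, chr7:113207261-113207560, plus strand: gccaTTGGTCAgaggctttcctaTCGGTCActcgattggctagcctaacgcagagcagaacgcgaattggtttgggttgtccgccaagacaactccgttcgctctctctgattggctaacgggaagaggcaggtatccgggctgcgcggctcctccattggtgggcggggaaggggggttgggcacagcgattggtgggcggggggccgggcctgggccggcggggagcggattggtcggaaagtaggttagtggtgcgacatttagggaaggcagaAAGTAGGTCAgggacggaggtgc
Per1, chr11:69098699-69098998, plus strand: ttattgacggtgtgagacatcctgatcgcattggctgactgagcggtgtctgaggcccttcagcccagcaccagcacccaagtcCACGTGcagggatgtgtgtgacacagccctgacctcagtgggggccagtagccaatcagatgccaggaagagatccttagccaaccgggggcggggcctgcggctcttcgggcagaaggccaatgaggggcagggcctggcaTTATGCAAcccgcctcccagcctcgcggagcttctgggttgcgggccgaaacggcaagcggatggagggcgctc
Per3, chr4:151044616-151044915, minus strand: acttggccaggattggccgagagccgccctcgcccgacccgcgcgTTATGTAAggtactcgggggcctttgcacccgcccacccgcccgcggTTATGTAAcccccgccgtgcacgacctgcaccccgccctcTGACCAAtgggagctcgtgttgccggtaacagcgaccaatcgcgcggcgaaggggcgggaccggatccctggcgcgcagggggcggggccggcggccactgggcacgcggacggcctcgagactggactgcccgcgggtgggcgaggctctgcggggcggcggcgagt
Cry1, chr10:85185005-85185304, minus strand: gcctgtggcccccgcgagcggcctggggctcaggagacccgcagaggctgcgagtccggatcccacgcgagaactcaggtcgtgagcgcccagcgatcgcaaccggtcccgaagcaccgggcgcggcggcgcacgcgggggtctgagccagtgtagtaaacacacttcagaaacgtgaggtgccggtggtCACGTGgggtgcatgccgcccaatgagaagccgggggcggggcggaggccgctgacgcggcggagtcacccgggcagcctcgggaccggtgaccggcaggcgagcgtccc
Tef, chr15:81811164-81811463, plus strand: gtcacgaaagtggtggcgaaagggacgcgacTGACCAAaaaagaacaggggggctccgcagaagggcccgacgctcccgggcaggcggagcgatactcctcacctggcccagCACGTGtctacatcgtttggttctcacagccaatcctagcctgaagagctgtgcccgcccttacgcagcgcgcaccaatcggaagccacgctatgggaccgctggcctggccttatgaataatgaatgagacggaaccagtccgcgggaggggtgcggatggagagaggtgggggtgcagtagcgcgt
The Arntl window holds the full element, AAGTAGGTCA, whose first base is 27 bases after the start, and 2 further cores. The Per1 window holds an E-box and a D-box, TTATGCAA. The Per3 window holds the D-box TTATGTAA at 2 places and a core on the other strand, TGACCAA. Cry1 and Tef each hold 1 E-box in the printed window, and the other Tef window holds 1 as well. The printed Tef window also holds a core on the other strand, TGACCAA. No match lay in the windows of Npas2, Dbp, Nr1d1 and Nr1d2, which says only that these letters are not in those 300 bases.

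Levels are counts per 1e6 gene counts (CPM) after TMM scaling, which corrects library sizes for composition. The depth was 20.98 to 41.35 M (1e6) gene counts per library. All 10 adipocyte markers tested, such as Adipoq and Plin1, averaged at least 1 CPM in each group. Their summed level was 7068 to 22478 CPM in males and 11324 to 28653 CPM in females. Markers of the epididymis, an organ that lies against a male fat pad, summed to over 100 CPM in 7 male libraries, with 13277 CPM in WT male 2, and to at most 2.03 CPM in females. Of these 8 markers, 5, 3 and 4 had no count in WT, Y665F and Y665H females. The male libraries that did not exceed 100 CPM of epididymis markers were WT male 1, Y665F males 2 and 3, and Y665H males 1 and 2. Fits without the 7 libraries therefore keep WT male 1 alone among WT males. In bulk tissue, fewer cells of a type and less RNA per cell cannot be told apart.

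Per kilobase of exon (GENCODE M21, GRCm38), the median level over the 24 libraries was lowest for the activators, at 0.332 CPM per kb for Npas2 and 0.469 for Arntl. Cry1 followed at 3.62 CPM per kb, then Per2 at 12.4 and Per3 at 14.3. Nr1d2 at 24.7, Tef at 27.4, Dbp at 29.0 and Per1 at 29.3 CPM per kb lay close together, and their ranges over libraries overlapped. Nr1d1 was highest, at 65.6 CPM per kb. The activators also varied most: CPM differed between the highest and the lowest library 8.97-fold for Arntl and 9.29-fold for Npas2, against 3.92-fold for Per2, 3.59-fold for Nr1d1 and 2.18-fold for Tef. Within groups, the SD of log2(CPM + 1) had a median of 0.30 over the 10 members and of 0.23 over the 14792 genes averaging 1 CPM or more. Counts behind these levels were 44 to 376 reads for Arntl, 19 to 172 for Npas2 and 215 to 865 for Cry1, and at least 1113 in any library for the other members.

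Arntl (chromosome 7, 113207465 to 113314126, plus strand) encodes the obligate activator of the clock. Its level was 4.23, 11.3, 5.61 and 4.86 CPM in WT males, 7.96, 6.02, 5.13 and 6.89 CPM in Y665F males, and 5.08, 1.98, 5.56 and 5.58 CPM in Y665H males. In females it was 2.32, 3.64, 1.26 and 3.14 CPM in WT, 3.41, 2.84, 2.9 and 2.92 CPM in Y665F, and 1.61, 2.66, 1.65 and 3.14 CPM in Y665H. In 11 of the 12 male libraries Arntl was above the highest female library, and Y665H male 2 was the exception. Npas2 (chromosome 1, 39193731 to 39363236), the partner that can stand in for CLOCK, averaged 2.99, 2.55 and 2.28 CPM in WT, Y665F and Y665H males and 1.30, 1.51 and 1.07 CPM in the matching females. Its groups overlapped throughout.

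Among the repressors, Per1 (chromosome 11, 69095217 to 69109960), which also responds directly to glucocorticoids, was at 168, 114, 160 and 162 CPM in WT males and at 252, 214, 216 and 279 CPM in WT females. It was at 188, 147, 117 and 181 CPM in Y665F females and at 194, 142, 145 and 108 CPM in Y665H females. WT females thus lay above each of these 3 groups without overlap. They overlapped Y665F males, at 138.6 to 230.4 CPM, and Y665H males, at 132.4 to 214.7 CPM. Per2 (chromosome 1, 91415982 to 91459324, minus strand) was at 115, 81.5, 116 and 111 CPM in WT females, 79.0, 78.6, 91.8 and 107 CPM in Y665F females and 68.5, 57.5, 73.2 and 68.9 CPM in Y665H females, so that Y665H females were below both other female groups. In males, Per2 was at 33.4 to 85.8 CPM in WT, 40.1 to 82.4 CPM in Y665F and 52.7 to 131 CPM in Y665H. Per3 (chromosome 4, 151003652 to 151044665) ran from 85.7 to 199 CPM and Cry1 (chromosome 10, 85131700 to 85185064) from 9.42 to 22.3 CPM over the 24 libraries, with overlap between all groups compared.

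The receptor gene Nr1d1 (chromosome 11, 98767932 to 98775333, minus strand) was at 134, 138, 97.0 and 95.5 CPM in Y665F females and at 274, 343, 309 and 264 CPM in Y665F males. It was at 211, 226, 169 and 193 CPM in WT females, 231, 177, 163 and 143 CPM in Y665H females and 220, 284, 210 and 294 CPM in Y665H males. Y665F females had the lowest mean and Y665F males the highest. WT males spread most widely, at 311, 138, 178 and 119 CPM. Its paralogue Nr1d2 (chromosome 14, 18204054 to 18239127, minus strand) was at 152, 139, 164 and 148 CPM in Y665F females against 109, 107, 129 and 114 CPM in Y665F males. In Y665H it was at 163, 141, 200 and 190 CPM in females against 129, 139, 125 and 116 CPM in males. In both mutants the female libraries were all above the male ones, and the WT sexes overlapped.

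The output gene Dbp (chromosome 7, 45705088 to 45710203, plus strand), one of the transcripts with the widest daily swing in mouse tissues, was at 114, 108, 126 and 98.2 CPM in WT females, against 79.0, 87.5, 69.6 and 76.6 CPM in Y665F females. It was at 134, 92.6, 109 and 81.8 CPM in Y665H females. In males it was at 88.4, 49.8, 80.3 and 66.1 CPM in WT, 71.2, 92.0, 86.2 and 89.5 CPM in Y665F, and 69.7, 127, 62.2 and 76.3 CPM in Y665H. WT females were above Y665F females and above WT males without overlap. Tef (chromosome 15, 81802421 to 81826863, plus strand), a related factor, ran from 128 CPM in WT male 2 to 279.7 CPM in Y665H male 2.

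**Figure D1:**
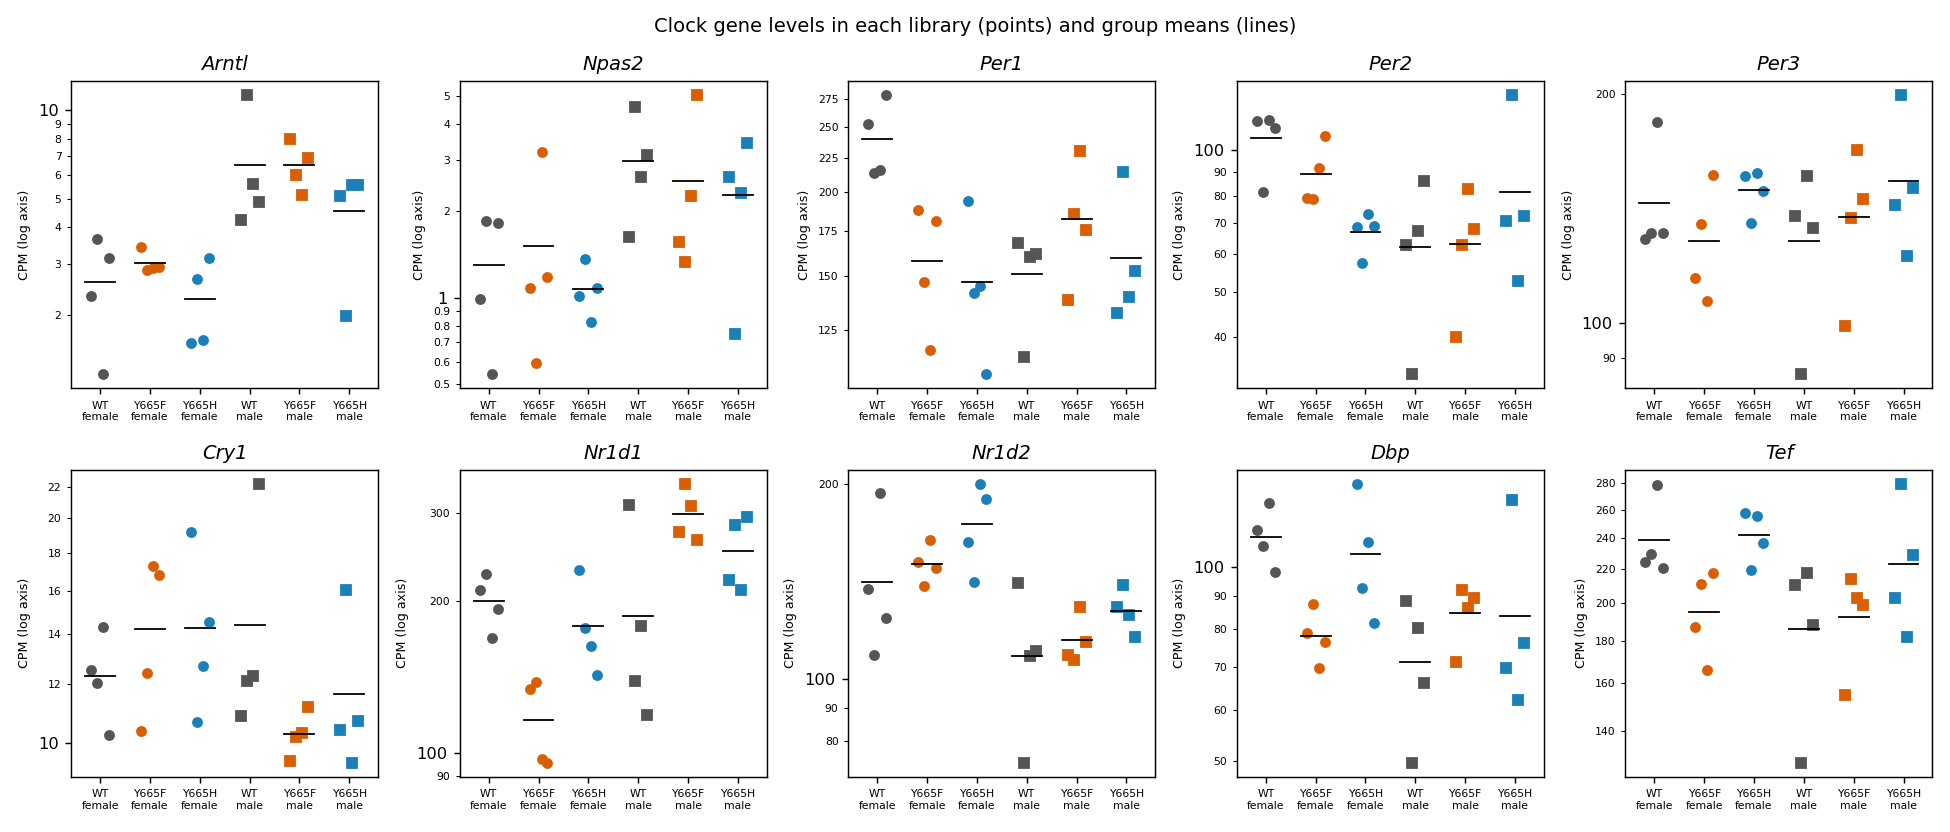
CPM of the 10 clock genes (vertical log axes) in the 24 libraries, by group; circles are female and squares male libraries, coloured by genotype, and the short line is the group mean of 4 libraries. Arntl is above the highest female library in 11 of 12 male libraries, and the mean of Nr1d1 is lowest in Y665F females.

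One male library stood at an end of the range for 6 members. WT male 2 had the highest Arntl and the lowest Per2, Per3, Nr1d2, Dbp and Tef of all 24 libraries, and also the most epididymis marker RNA and the least adipocyte marker RNA. Y665H male 2 had the highest Per2, Per3 and Tef, with 22478 CPM of adipocyte markers and 2.12 CPM of epididymis markers. The log2 ratio of Arntl to Dbp was highest in WT male 2, at -2.14, and lowest in WT female 3, at -6.64. By group, it averaged -3.53 ± 0.97 (SD, n = 4) in WT males, -3.72 ± 0.40 in Y665F males and -4.26 ± 1.17 in Y665H males. In females it averaged -5.53 ± 0.81 in WT, -4.70 ± 0.18 in Y665F and -5.56 ± 0.78 in Y665H. Y665F females were thus the most uniform group on this measure.

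**Figure D2:**
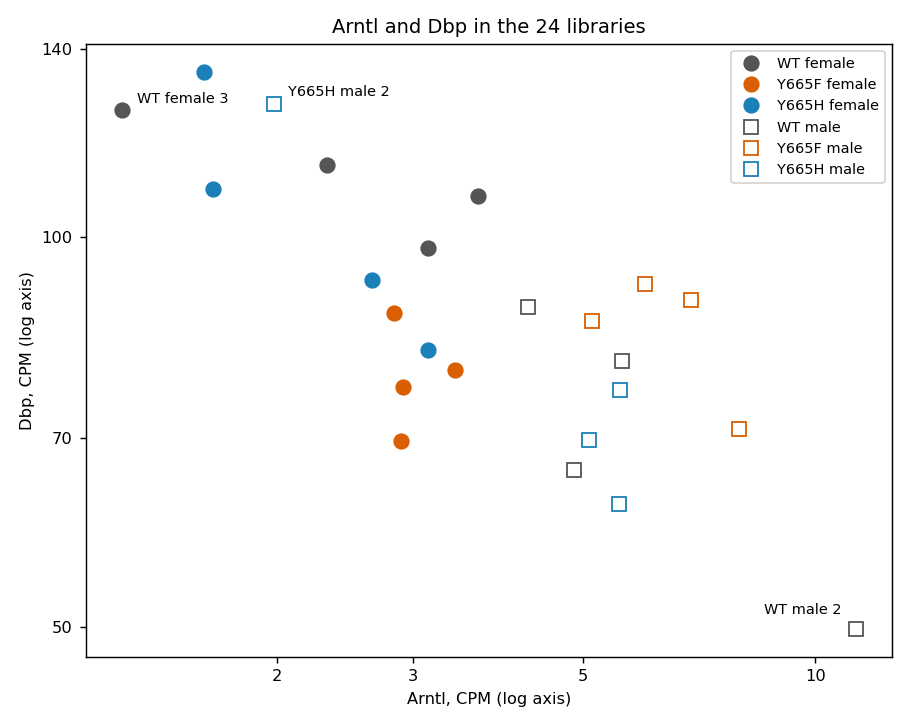
Arntl against Dbp (both in CPM on log axes) in the 24 libraries, filled circles for females and open squares for males, coloured by genotype. Libraries run from high Dbp and low Arntl (WT female 3, 1.26 CPM of Arntl) to low Dbp and high Arntl (WT male 2, 11.3 CPM of Arntl).

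In Y665F females, Dbp and Nr1d1 were lower than in WT females. Dbp averaged 78.2 ± 7.36 against 111 ± 11.5 CPM (SD, n = 4 each), a log2 fold change of -0.51 ± 0.10 SE (adjusted p = 0.0347 by edgeR). Nr1d1 averaged 116 ± 23.0 against 199.9 ± 24.7 CPM, a log2 fold change of -0.78 ± 0.15 SE (adjusted p = 0.0361 by edgeR). Genes whose adjusted p fell under 0.05 are referred to as called. Of the 10 members 2 were called, both lower, where 3.33% of all tested genes were called and 1.02% were called lower. Per1 did not pass (-0.60 ± 0.16 SE on the log2 scale, adjusted p = 0.0805 by edgeR), although its groups did not overlap. Of the 10 members, 4 were higher and 6 lower, with a median log2 fold change of -0.21 against 0.02 for all tested genes. The WT values are shared with the Y665H comparison.

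Composition differed between the same groups of females, and so did the share of counts assigned to no gene, at 32.5 to 35.9% in Y665F against 27.9 to 30.3% in WT. All 8 skeletal muscle markers were lower in Y665F (median log2 fold change -3.63, none called, 7 with an unadjusted edgeR p under 0.05). All 10 adipocyte markers were lower in Y665F females, with a median log2 fold change of -0.41 and none called, and their sum was 11324 to 19976 CPM against 19727 to 24975 CPM in WT. All 8 T and NK cell markers were higher and called, with sums of 24.0 to 38.6 CPM against 7.79 to 11.4 CPM. All 6 B cell markers (2 called) and 7 of 8 macrophage markers (none called) were higher. Of 8 epithelial markers, 7 were higher (median log2 fold change 2.65, none called). Their sum was 1103 CPM in Y665F female 3, which also had the lowest adipocyte sum of these females, against 17.0 to 119 CPM in WT females. The part of the muscle, immune and epithelial lists in the calls was not tested. With the adipocyte sum as a covariate, a fit added after the data were seen, Dbp was at -0.38 (edgeR adjusted p = 0.117) and Nr1d1 at -0.65 (edgeR adjusted p = 0.104). Leave-one-out fits each dropped 1 of the 8 libraries. The Dbp call held in 1 and the Nr1d1 call in 2 of the 8 leave-one-out fits, with edgeR adjusted p of 0.043 to 0.1 and 0.0407 to 0.0954, and both directions held in all 8. In 1 fit over all 24 libraries both calls were lost (edgeR adjusted p = 0.162 for Dbp and 0.0686 for Nr1d1). The Dbp call was lost without any library but Y665F female 3, and the Nr1d1 call without any but WT female 3 and Y665F female 3.

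In Y665H females, Per2 was lower than in WT females, at 67.0 ± 6.71 against 105.9 ± 16.4 CPM (SD, n = 4 each), a log2 fold change of -0.67 ± 0.13 SE (adjusted p = 0.0316 by edgeR). It was the 1 member called, where 3.34% of all tested genes were called and 1.8% were called lower. Per1, named here after its values were seen, had a log2 fold change of -0.71 ± 0.17 SE (adjusted p = 0.056 by edgeR). Dbp, Nr1d1 and Arntl overlapped between these groups, with log2 fold changes of -0.10, -0.17 and -0.20. The Per2 call held in 2 of the 8 leave-one-out fits, those without WT female 2 or 3, with edgeR adjusted p of 0.0206 to 0.112 over the 8. Adipocyte marker sums were 23896 to 28653 CPM in Y665H females, and with them as a covariate Per2 was at -0.86 (edgeR adjusted p = 0.0485).

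Between the mutants, Per2 was lower in Y665H than in Y665F females, with a log2 fold change of -0.42 ± 0.12 SE (adjusted p = 0.0455 by edgeR). It was the 1 member called, where 17.4% of all tested genes were called and 8.59% were called lower, so the share of members was no higher than that of all genes. Nr1d1 lay higher in Y665H without overlap and was not called (0.61 ± 0.18 SE on the log2 scale, adjusted p = 0.0508 by edgeR). The Per2 call held in 1 of the 8 leave-one-out fits, that without Y665F female 2, and had an edgeR adjusted p of 0.297 with the adipocyte covariate. The marker lists also differed here: 9 of the 10 adipocyte markers were higher in Y665H and all 8 T and NK cell markers lower. All 8 skeletal muscle markers were higher (5 called, median log2 fold change 4.32), and 5 of 6 B cell and 5 of 8 macrophage markers were called lower. The share of counts assigned to no gene was 24.8 to 29.9% in Y665H, against 32.5 to 35.9% in Y665F. The part of these differences in the Per2 call was tested only for the adipocyte sum.

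In males, no member was called for either mutant, where edgeR called 0% of all tested genes in both comparisons. That share depends on the fit: for Y665F, edgeR called 2261 genes in 1 fit over all 24 libraries, 570 without WT male 1 and 177 with the adipocyte covariate, and DESeq2 called 1143; for Y665H, the single fit called 203 and DESeq2 119. DESeq2 called no member either, and 1 member in Y665F and none in Y665H had an unadjusted edgeR p under 0.05. For Y665F against WT males, Nr1d1 had the smallest p, with a log2 fold change of 0.68 ± 0.28 SE (adjusted p = 0.284 by edgeR). It was called when WT male 1 was left out (log2 fold change 1.03, edgeR adjusted p = 0.0411), the WT male library with the highest Nr1d1. Arntl was at 0.00 ± 0.33 SE (adjusted p = 0.996 by edgeR) and Dbp at 0.25 ± 0.18 SE (adjusted p = 0.465 by edgeR). For Y665H against WT males, Nr1d1 was at 0.42 ± 0.30 SE (adjusted p = 0.458 by edgeR), Arntl at -0.52 ± 0.42 SE (adjusted p = 0.511 by edgeR) and Dbp at 0.22 ± 0.26 SE (adjusted p = 0.649 by edgeR).

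Between the mutants in males, no member was called by edgeR or DESeq2 and none had an unadjusted edgeR p under 0.05, where edgeR called 1.03% of all tested genes. Nr1d1 had the smallest p, with a log2 fold change of -0.26 ± 0.14 SE (adjusted p = 0.363 by edgeR) in Y665H against Y665F. Arntl was at -0.54 ± 0.32 SE (adjusted p = 0.422 by edgeR) and Dbp at -0.04 ± 0.21 SE (adjusted p = 0.936 by edgeR). The standard errors of Dbp were 0.18 and 0.26 in the comparisons with WT males, against 0.10 and 0.15 with WT females.

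**Figure D3:**
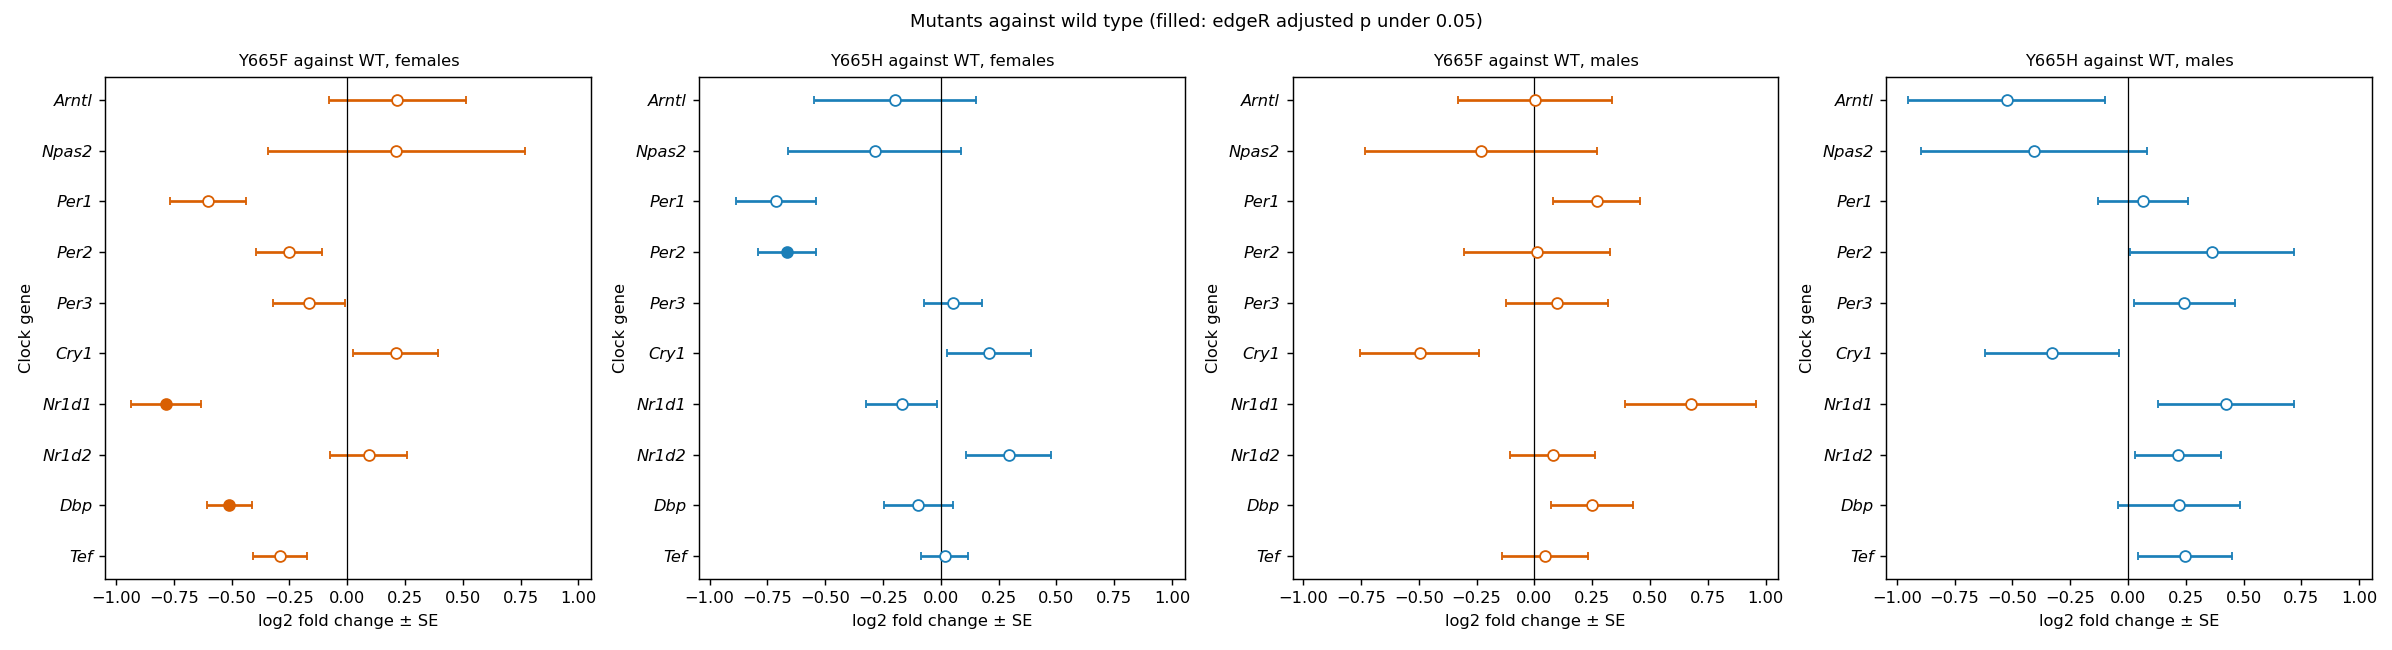
Log2 fold changes of the 10 clock genes (points) with their standard errors (bars) for each mutant against WT, females in the left pair of panels and males in the right pair, with filled points where the edgeR adjusted p was under 0.05. Dbp and Nr1d1 in Y665F females and Per2 in Y665H females are filled, and no gene is in males.

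The difference between the sexes in each mutant's effect was tested as an interaction over 16 libraries. For Y665F, Nr1d1 was lower than WT in females and had a positive, uncalled fold change in males, and the difference was 1.45 ± 0.35 SE on the log2 scale (adjusted p = 0.11 by edgeR), the smallest p among the members. Dbp differed by 0.76 ± 0.21 SE (adjusted p = 0.131 by edgeR) and Arntl by -0.22 ± 0.47 SE (adjusted p = 0.808 by edgeR). No member was called, where edgeR called 0% of all tested genes, though 4 members had an unadjusted p under 0.05. DESeq2 called 3 members, Nr1d1, Dbp and Per1 (adjusted p = 0.00412 and 0.0212 for the first and the second) among 1193 genes in all. Without WT male 1, edgeR called 3 members and 1686 genes. Without the 7 libraries over 100 CPM of epididymis markers, the Nr1d1 difference was 0.87. That fit keeps only WT male 1 of the WT males, the one with the highest Nr1d1. For Y665H, no member was called by edgeR or DESeq2, where edgeR called 0.0119% of all tested genes and 2 members had an unadjusted p under 0.05. Per1 had the smallest p, with a difference of 0.78 ± 0.27 SE (adjusted p = 0.193 by edgeR), against -0.33 ± 0.59 SE (adjusted p = 0.78 by edgeR) for Arntl and 0.32 ± 0.32 SE (adjusted p = 0.592 by edgeR) for Dbp.

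Between the sexes, 3 members were called in Y665F, 2 in Y665H and 1 in WT. In Y665F, Arntl was higher in males, at 6.50 ± 1.21 against 3.02 ± 0.26 CPM (SD, n = 4 each), a log2 fold change of 1.12 ± 0.17 SE (adjusted p = 0.00865 by edgeR). Nr1d1 was also higher in males, at 298 ± 35.6 against 116 ± 23.0 CPM, a log2 fold change of 1.36 ± 0.15 SE (adjusted p = 0.0038 by edgeR). Nr1d2 was lower in males, with a log2 fold change of -0.39 ± 0.09 SE (adjusted p = 0.025 by edgeR). The 3 calls among 10 members stand beside 15.1% of all tested genes called, 7.6% higher in males and 7.52% lower. The Arntl and Nr1d1 calls held in all 8 leave-one-out fits and in the 7 other settings tried, with the highest edgeR adjusted p, 0.0498, for Arntl without the libraries over 100 CPM of epididymis markers. The Nr1d2 call held in 3 of the 8, those without Y665F male 3 or 4 or Y665F female 2, and had an edgeR adjusted p of 0.124 without the libraries rich in epididymis markers.

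In WT, Per1 was lower in males than in females, at 151 ± 24.99 against 240.2 ± 31.3 CPM (SD, n = 4 each), a log2 fold change of -0.65 ± 0.16 SE (adjusted p = 0.0328 by edgeR). It was the 1 member called, where 13.1% of all tested genes were called and 5.95% were called lower. Arntl, named here and for Y665H after its values were seen, was higher in males by 1.35 ± 0.43 SE on the log2 scale but not called (adjusted p = 0.0681 by edgeR). Without WT male 2, Arntl was at 0.94 (edgeR adjusted p = 0.127). All 10 adipocyte markers were lower in WT males, with a median log2 fold change of -0.68 and none called, and with their sum as a covariate Per1 was at -0.40 (edgeR adjusted p = 0.158) and Arntl at 0.59 (edgeR adjusted p = 0.391). All 8 skeletal muscle markers were lower in WT males (6 called, median log2 fold change -5.12) and all 8 epithelial markers higher (3 called, median 3.99), and their part was not tested. Per1 was also lost with scaling by library totals (-0.48, edgeR adjusted p = 0.0591). Without the libraries over 100 CPM of epididymis markers, which leaves WT male 1 alone among WT males, it was at -0.51. The Per1 call held in the fits without WT male 1 or 2 and was lost without each of the other 6 libraries (edgeR adjusted p of 0.0239 to 0.0976 over the 8).

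In Y665H, Nr1d1 was higher in males by 0.51 ± 0.17 SE on the log2 scale (adjusted p = 0.0487 by edgeR), although the sexes overlapped, and Nr1d2 was lower by a log2 fold change of -0.44 ± 0.12 SE (adjusted p = 0.0229 by edgeR). Here 28.8% of all tested genes were called, 15.2% higher in males and 13.7% lower, against these 2 of 10 members. Arntl was at 1.02 ± 0.36 SE (adjusted p = 0.0631 by edgeR), and at 1.25 without Y665H male 2 (edgeR adjusted p = 0.00877). With the adipocyte covariate Arntl was at 0.10 (edgeR adjusted p = 0.924), Nr1d1 at 1.15 (edgeR adjusted p = 0.0129) and Nr1d2 at -0.49 (edgeR adjusted p = 0.176). The Nr1d1 call held only without Y665H male 3 or Y665H female 1, and the Nr1d2 call only without Y665H male 2, Y665H female 1 or Y665H female 2. Adipocyte marker sums were 17743 to 22478 CPM in Y665H males against 23896 to 28653 CPM in Y665H females. All 8 skeletal muscle markers were lower in Y665H males (7 called, median log2 fold change -6.16) and 4 of 8 epithelial markers were called higher, and the part of these in the differences was not tested. With scaling by library totals Nr1d2 was at -0.29 and not called (edgeR adjusted p = 0.0993).

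**Figure D4:**
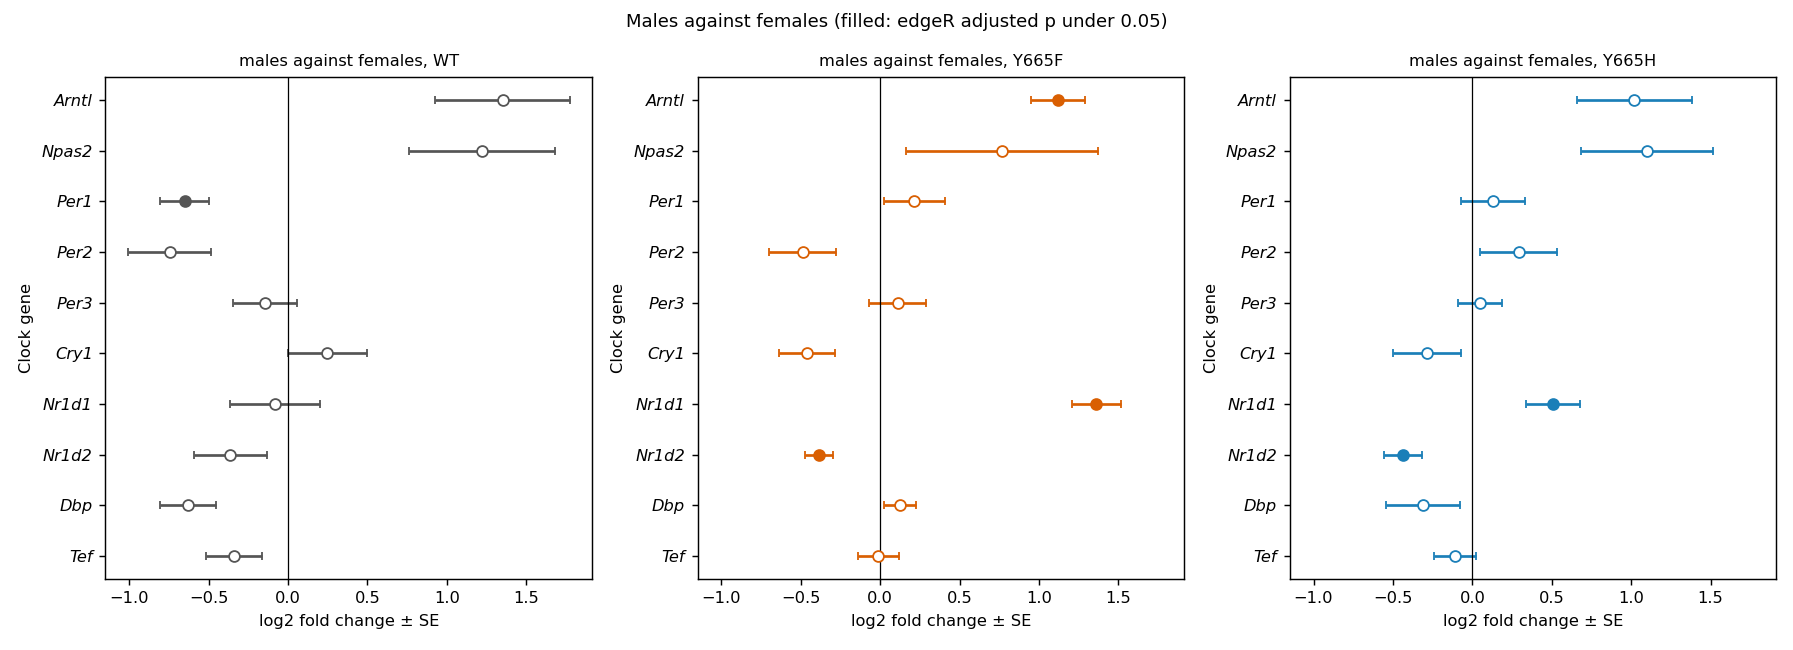
Log2 fold changes of the 10 clock genes in males against females (points) with standard errors (bars) within WT, Y665F and Y665H, with filled points where the edgeR adjusted p was under 0.05. Arntl lies at 1.35, 1.12 and 1.02 in the 3 genotypes, and Nr1d1 at -0.08, 1.36 and 0.51.

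Over the 9 comparisons of 2 groups, 10 of 90 gene and comparison pairs were called. Each group entered several of the comparisons, so these calls are not independent. For instance, both Per2 calls used the same Y665H females. The share of all tested genes called in these comparisons ran from 0% for either mutant against WT in males to 28.8% between the Y665H sexes. The 10 calls were not tested against these shares. The calls fell on 6 members, and Npas2, Per3, Cry1 and Tef were called in none. Of the 10 calls, 2 held in every leave-one-out fit and 8 held in 1 to 3 of the 8 such fits.

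Reads from overlapping genes could enter some of these counts, because the strand setting of the counting is not given in the sources used here. Nr1d1 shares 263 exon bases, 8.55% of its exons, with Thra on the opposite strand, and Dbp shares 539, 18.0% of its exons, with Sphk2. Between Y665F and WT females, Thra was at -0.27 (edgeR adjusted p = 0.136), beside -0.78 for Nr1d1. Sphk2 was at 0.12 there (edgeR adjusted p = 0.516), beside -0.51 for Dbp. Between Y665F males and females, Thra was higher in males by 0.35 on the log2 scale (edgeR adjusted p = 0.0243), beside 1.36 for Nr1d1. Between the WT sexes, Sphk2 was higher in males by 0.62 (edgeR adjusted p = 0.0338), beside -0.63 for Dbp, which was not called. How far reads of Thra and Sphk2 entered the counts of Nr1d1 and Dbp was not tested.

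Between libraries of the same group, Arntl varied opposite to 6 of the other members. With group means removed, Arntl and Dbp had a Pearson r of -0.849 and a Spearman rho of -0.846 over the 24 libraries (two-sided permutation p = 0.00029 and 0.00015, adjusted over 45 pairs 0.0027). Without WT male 2 and Y665H male 2, the libraries farthest from the median of Arntl, r was -0.738. It was -0.902 in the 12 male libraries (adjusted permutation p = 0.0247) and -0.731 in the 12 female libraries, where it did not pass the adjustment. Arntl was also negatively correlated with Tef (r = -0.791), Per2 (-0.789), Per3 (-0.779), Nr1d2 (-0.747) and Per1 (-0.599), and positively with Npas2 (0.618). With the adipocyte marker sum regressed out, Npas2 was at 0.367 (adjusted permutation p = 0.324) and Per1 at -0.397 (adjusted permutation p = 0.188), while the other 5 pairs passed. Both also failed without Y665H male 2 (adjusted permutation p = 0.0576 and 0.0782), and Per1 without WT male 2 (adjusted permutation p = 0.065). Npas2, the other activator, passed with Dbp (r = -0.581), Tef (-0.549) and Nr1d2 (-0.439) but not with the 3 Per genes, Cry1 or Nr1d1, and with the adipocyte sum regressed out none of its pairs passed. Arntl did not pass with Cry1 (r = -0.492, adjusted permutation p = 0.0947) or with Nr1d1 (r = -0.29, adjusted permutation p = 0.39).

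Several members opposite to Arntl varied together. Per3 and Tef had an r of 0.945 and a rho of 0.921 (permutation p = 3e-05 and 5e-05, adjusted 0.000675), with 0.946 in males and 0.952 in females. Dbp and Tef had an r of 0.851 (rho 0.87, permutation p = 1e-05 for both, the smallest that the permutations can give), and Per2 and Per3 an r of 0.833 (rho 0.811, permutation p = 0.0003 and 0.0002). The receptors did not vary together: Nr1d1 and Nr1d2 had an r of 0.101 and a rho of -0.14 (permutation p = 0.782 and 0.567), and an r of 0.558 in males against -0.554 in females. Nr1d1 was correlated with Dbp (r = 0.614, adjusted permutation p = 0.0194).

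Of the 45 pairs, 25 passed the adjusted permutation test, 16 positive and 9 negative. In the 12 male libraries 17 passed and in the 12 female libraries 1 did, Per3 with Tef. The count was 14 without WT male 2 and 12 without Y665H male 2, and 3 without the 7 male libraries over 100 CPM of epididymis markers, which leaves 17 libraries. In those 17, r was -0.818 for Arntl with Dbp, -0.739 with Tef and -0.723 with Per3, none of them passing (adjusted permutation p = 0.0705, 0.103 and 0.0705). That male and female correlations differ was not tested. With the adipocyte marker sum regressed out, 16 pairs passed.

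**Figure D5:**
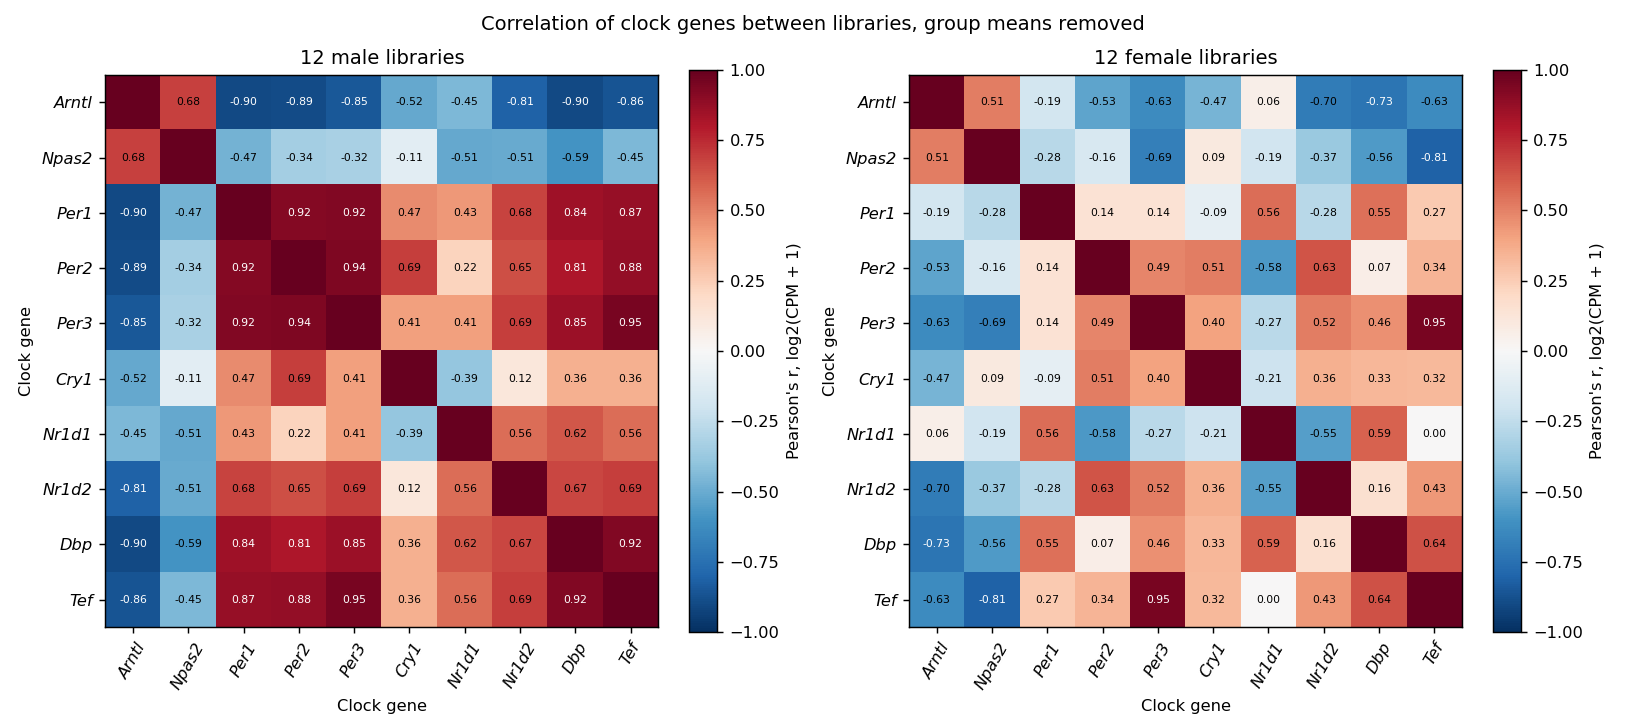
Pearson's r of log2(CPM + 1) with group means removed, for each pair of clock genes, in the 12 male (left) and the 12 female libraries (right); red is positive and blue negative. Arntl is negative against Dbp in both sexes, at -0.902 and -0.731, and Per3 with Tef is positive in both, at 0.946 and 0.952.

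Several members followed the adipocyte marker sum over the 24 libraries, group means removed. The r was -0.718 for Npas2 (rho -0.707, permutation p = 0.00056 and 0.00021, adjusted 0.0056 over 10 members), 0.715 for Tef (adjusted 0.0198), 0.593 for Dbp (adjusted 0.00975), 0.59 for Per1 (adjusted 0.0198) and -0.569 for Arntl (adjusted 0.0199). Without the 2 libraries farthest from the median of the sum, these were -0.676, 0.497, 0.466, 0.423 and -0.461. In the 12 female libraries none of the 10 passed the adjustment, with a smallest adjusted permutation p of 0.0944. The r there was -0.818 for Npas2, 0.615 for Tef, 0.514 for Dbp, 0.702 for Per1 and -0.274 for Arntl. In the 12 male libraries Arntl had an r of 0.707 with the epididymis marker sum (rho 0.685, permutation p = 0.0236 and 0.022, adjusted 0.082), and again none of the 10 passed.

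The genes most like Dbp among 14782 averaging 1 CPM or more, by Pearson r over the 24 libraries with group means removed, were Naprt (0.856), Ssbp3 (0.853), the clock repressor Cry2 (0.843), Ctdsp2 (0.827) and Dab2ip (0.792). The genes most like Arntl were Gen1 (0.821), Cx3cr1 (0.774), Tcf7 (0.765), Gins3 (0.762) and Sema4d (0.759). Most opposite to Arntl were Zbtb4 (-0.847), Cys1 (-0.838), Por (-0.825), Dab2ip (-0.815) and Nudt17 (-0.812).

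A list of 15 other clock genes, among them Clock, Cry2, Rorb and the casein kinases, was read beside the members. In Y665F against WT females, 1 of the 15 was called, against 3.33% of all tested genes: Bhlhe41, a repressor of E-box genes, at 24.7 ± 1.44 against 40.1 ± 8.14 CPM (-0.70 ± 0.14 SE on the log2 scale, adjusted p = 0.0417 by edgeR). That call held in 2 of the 8 leave-one-out fits and was lost with library totals, 1 fit over all libraries and the adipocyte covariate (edgeR adjusted p of 0.0533, 0.183 and 0.0812). In Y665H against WT females none was called with edgeR, 1 had an unadjusted edgeR p under 0.05 and DESeq2 called 1. Between Y665H and Y665F females, Bhlhe41 was higher in Y665H by 0.76 (edgeR adjusted p = 0.00678) and Rorb by 1.13 (edgeR adjusted p = 0.0142), where 17.4% of all tested genes were called. Both calls held in all 8 leave-one-out fits and were lost in 1 fit over all libraries (edgeR adjusted p = 0.0869 and 0.453) and with the covariate (0.0773 and 0.379). Rorb was at a low level, 1.20 CPM in Y665H against 0.54 CPM in Y665F females. In males, edgeR called none of the 14 tested in Y665F against WT, Y665H against WT and Y665H against Y665F, where 0, 1 and 3 had an unadjusted p under 0.05 and DESeq2 called 0, 0 and 1.

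Between the sexes, 1 of the 15 was called in WT, against 13.1% of all tested genes: Rorb, lower in males by a log2 fold change of -2.32 (edgeR adjusted p = 0.0486) at levels of 0.0550 to 1.89 CPM. It held in 1 of the 8 leave-one-out fits and was lost in other settings, such as the replicate block (edgeR adjusted p = 0.0869). Without the libraries rich in epididymis markers, which leaves WT male 1 alone among WT males, it was at -2.73. In Y665F, Bhlhe41 (1.04), Bhlhe40 (0.79), Cry2 (0.45) and Csnk1e (0.41) were higher in males on the log2 scale and Nfil3 was lower (-0.93), with edgeR adjusted p of 0.00127 to 0.0263, where 15.1% of all tested genes were called. Of these, Cry2 and Nfil3 were lost without the libraries rich in epididymis markers (edgeR adjusted p = 0.0731 and 0.0534), and Cry2 held in 5 and Nfil3 in 7 of the 8 leave-one-out fits. Those called in Y665H included Fbxl21 (0.87) and Bhlhe41 (0.59), higher in males, and Rorb (-3.09) and Arntl2 (-0.46), lower in males, with edgeR adjusted p of 0.000731 to 0.0476, where 28.8% of all tested genes were called. Arntl2 held in 1 and Fbxl21 in 3 of the 8 leave-one-out fits, Bhlhe41 and Rorb in all 8. Bhlhe41 was lost in 1 fit over all libraries (edgeR adjusted p = 0.149) and Rorb with the covariate (edgeR adjusted p = 0.0573). Rorb was again at a low level, 0.13 CPM in Y665H males against 1.20 CPM in Y665H females. Neither interaction called any of the 15 with edgeR, where 4 and 3 had an unadjusted p under 0.05 for Y665F and Y665H and DESeq2 called 1 each.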

How the data were processed

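Stranded libraries were made after removal of ribosomal RNA and sequenced from both ends, per the labels. The authors deposited unnormalized counts of reads for 24421 gene symbols, made on mm10 with Trimmomatic 0.36, STAR and HTSeq 0.9.1 per the submitters' processing notes. The annotation and strand setting are not given in the sources used here. Entries that name no gene (24.8 to 39.7% of counts) were left out.

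Groups come from sample titles. Counts were tested with edgeR 4.0.16 (quasi-likelihood F test, TMM, filterByExpr), Benjamini-Hochberg adjusted over all tested genes, on the 8 libraries of each comparison or the 16 of each interaction. Correlations used log2(CPM + 1) and 100000 permutations within groups. The tests were tried on simulated data. DESeq2 1.42.0, other scaling, no filter, 1 fit over all libraries, a replicate block and leaving out libraries were alternatives. The sex comparisons within Y665F and Y665H, the adipocyte covariate and the omission of 7 libraries were added after seeing the data. The named genes are the members called in a comparison, or else Arntl, Dbp and the member with the smallest p. For other lists they are the called genes, and for likeness to Dbp or Arntl the 5 genes with the most extreme r. The members and lists were chosen with earlier results of these data known. Within groups, no libraries were alike within sampling noise. Of the list of other clock genes, 1 result is not reported here.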

Additional observations from a re-analysis of the deposited data

Results flagged for a closer look

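In 7 of the 60 sets of 4 libraries (10 members in 6 groups), 1 library stood apart from the other 3 by Dixon's test, where chance flags about 1 in 20. The sets are not independent, because the members share libraries and several vary together. The number of flags was not tested against that rate. Arntl was 1.98 CPM in Y665H male 2, against 5.08 to 5.58 CPM in the other Y665H males. Arntl was 3.41 CPM in Y665F female 1, against 2.84 to 2.92 CPM in the others, a narrow spread. Per1 was 114 CPM in WT male 2, against 160 to 168 CPM in the other WT males. Cry1 was 22.3 CPM in WT male 4, against 10.9 to 12.3 CPM. In WT females, Per3 was 183 CPM and Tef 279 CPM in WT female 3, against 129 to 131 and 221 to 230 CPM in the others, and Per2 was 81.5 CPM in WT female 2, against 111 to 116 CPM. WT female 3 was also the library with the lowest Arntl and Npas2 of all 24.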

How the results depend on the processing

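Counts of members called that changed included the following, and the cause was not tested. With 1 fit over all 24 libraries, the count was 0 for Y665F against WT, Y665H against WT and Y665H against Y665F in females, 4 between the WT sexes and 1 between the Y665H sexes. With DESeq2 it was 3 for Y665F against WT females, 2 for Y665H against WT females and 3 for the Y665F interaction. It was 4 for Y665H against Y665F females, 4 between the sexes in WT and 4 in Y665H. For those with 4 members, DESeq2 called 3974, 4549 and 5915 genes in all, against 2689, 2079 and 4540 with edgeR. Scaling by library totals gave 2 for Y665H against WT females, and no filter on low counts gave 0 for Y665H against Y665F females and 1 between the Y665H sexes. The adipocyte covariate gave 0 for Y665F against WT females, for Y665H against Y665F females and between the WT sexes, and 1 between the Y665H sexes. Without the 7 libraries over 100 CPM of epididymis markers it was 0 between the Y665H sexes. Between the WT sexes that omission keeps WT male 1 alone among the males, so no count is given. Over all tested genes, DESeq2 called 2031 in Y665F against WT females and 1760 in Y665H against WT females, against 521 and 516 with edgeR, and totals scaling called 1164 in Y665F females, 1025 of them higher, against 361 of 521. Totals scaling moved the median log2 fold change of all genes between the sexes from 0.04 to 0.22 in WT, with 2111 of 2785 calls higher in males against 1135 of 2079, and from 0.02 to 0.17 in Y665H, with 3712 of 5023 against 2385 of 4540. Counts of members that did not change hid lost calls: with totals scaling Per1 between the WT sexes and Nr1d2 between the Y665H sexes.

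Replicate numbers were shared between groups, and the labels do not say that they pair libraries. Deviations of same-numbered libraries correlated from -0.379 to 0.733, and in none of the 9 comparisons were all 4 over 0.1. With 4 libraries per group, these values cannot show whether same-numbered libraries were collected or processed together. A replicate block gave 2 members for Y665H against Y665F females and 0 between the sexes in WT and in Y665H. In Y665F against WT females the block count stayed at 2, with Dbp (edgeR adjusted p = 0.0607) and Bhlhe41 (0.0545) no longer called and Per1 (0.0411) called. Calls of other genes lost with the block were Tsc22d3 (0.0637) and Dusp1 (0.0626) in Y665H against WT females, Fkbp5 (0.109), Tsc22d3 (0.0592) and Rorb (0.0869) between the WT sexes, Cry2 (0.0622) and Nfil3 (0.0529) in Y665F and Mt1 (0.0659), Mt2 (0.0579), Fbxl21 (0.0626) and Arntl2 (0.0943) in Y665H.

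Leaving out 1 library at a time gave 0 to 2 members called in Y665F against WT females, Y665H against WT females and Y665H against Y665F females, 0 to 1 in Y665F against WT males and 0 in the other male comparisons. It gave 0 to 4 between the sexes in WT and in Y665H, 2 to 3 in Y665F, 0 to 3 for the Y665F interaction and 0 to 1 for the Y665H interaction. Called pairs among the correlations ranged from 12 to 26, with 1 in females, 3 without the 7 libraries and 16 with the adipocyte sum regressed out.

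No called value reversed. Arntl in Y665F against WT males was -0.0599 with totals scaling and -0.154 to 0.427 with 1 library left out. Arntl in Y665H against WT males was 0.0249 with the covariate. Dbp there was -0.0799 with the covariate and -0.0356 to 0.372 with 1 library left out, and between the male mutants -0.308 to 0.0755. The Arntl interaction was 0.224 with the covariate, 0.203 without the 7 libraries and -0.393 to 0.188 with 1 left out for Y665F, and 0.0617 with the covariate and -0.535 to 0.0966 with 1 left out for Y665H. The r of Arntl with Nr1d1 was 0.235 with group means kept, 0.0584 in females and 0.0293 with the adipocyte sum regressed out. The r of Nr1d1 with Nr1d2 was -0.256 with group means kept, -0.0582 with totals scaling, -0.554 in females, -0.503 without the 7 libraries, -0.166 with the adipocyte sum regressed out and -0.33 to 0.251 with 1 library left out.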

Other observations

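A list of 8 genes that respond to glucocorticoids, hormones whose level also follows the time of day and stress, was read beside the clock genes. In Y665H females all 8 were lower than in WT females, with a median log2 fold change of -0.94 against -0.00 for all tested genes. Of these, 2 were called: Tsc22d3 (GILZ), at 103 ± 17.5 against 220.3 ± 37.2 CPM (-1.10 ± 0.15 SE on the log2 scale, adjusted p = 0.0148 by edgeR), and the phosphatase gene Dusp1, at 44.7 ± 5.62 against 94.5 ± 26.9 CPM (-1.08 ± 0.18 SE on the log2 scale, adjusted p = 0.0248 by edgeR), where 3.34% of all tested genes were called. The Tsc22d3 call held in 5 of the 8 leave-one-out fits. The Dusp1 call held in 2 of the 8 and was lost in 1 fit over all libraries and with the adipocyte covariate (edgeR adjusted p = 0.0575 and 0.0944). In Y665F females 7 of the 8 were lower, with a median of -0.45, and edgeR called none, while 1 had an unadjusted p under 0.05 and DESeq2 called 1. Against WT males, 5 were higher and 3 lower in Y665H males (median 0.19), and 4 higher and 4 lower in Y665F males (median -0.09). Of these edgeR called none, 1 and 3 had an unadjusted p under 0.05, and DESeq2 called 0 and 2. In Y665H, all 8 were higher in males than in females and 4 were called, Mt2 (2.95), Mt1 (1.5), Fkbp5 (1.43) and Tsc22d3 (0.77 on the log2 scale, edgeR adjusted p = 0.0108), where 28.8% of all tested genes were called and 15.2% were called higher. All 4 held in each leave-one-out fit, Mt1 and Mt2 were lost without the 7 libraries over 100 CPM of epididymis markers (edgeR adjusted p = 0.0866 and 0.0706), and Fkbp5 with the covariate (0.0893). In WT, Fkbp5 was higher in males (1.68, edgeR adjusted p = 0.0407) and Tsc22d3 lower (-0.89, edgeR adjusted p = 0.0296), where 13.1% of all tested genes were called. The WT sexes overlapped for Fkbp5. Fkbp5 held in 1 and Tsc22d3 in 3 of the 8 leave-one-out fits. With the adipocyte covariate both calls were lost, at 1.09 for Fkbp5 and -0.56 for Tsc22d3 (edgeR adjusted p = 0.261 and 0.141). Without the 7 libraries, which leaves WT male 1 alone among WT males, they were at 0.36 and -0.68.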
